A study of Mus musculus with 7 samples.

Results

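Sparc and its relative Sparcl1, 2 of the 9930 genes named on the array, are described here over every probe that the platform annotation gives to either gene alone. The rule found 5 of 20355 probes, 3 for Sparc (5137, 8471 and 11087) and 2 for Sparcl1 (3379 and 8166). The genes were chosen by their 3 h log2 ratios, since in an earlier look at these data Sparc was higher and Sparcl1 lower at that time, so their 3 h values and anything built on them are given as a description with no test. The 10 h values were not part of that choice and are tested, but the main fit takes its spread and dye term from the 3 h arrays as well.

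The cells were NIH3T3, an immortalised line of mouse embryonic fibroblasts, overexpressing Acid1. RNA from treated fibroblasts was hybridised together with RNA from non-treated fibroblasts on 2-colour arrays, 4 at 3 h and 3 at 10 h after treatment. The treated sample was in Cy5 on replicates 1 and 2 of each time and in Cy3 on the others. The labels say neither what the treatment was, nor what Acid1 stands for, nor whether the non-treated cells also carried the construct, and name no separate cultures, so a p-value covers only array-to-array spread, which may be technical. Every value is a log2 ratio, read as treated over non-treated. That direction is an assumption: the reading as Cy5 over Cy3, which turns the sign of the Cy3 arrays, is given beside the results on the 5 probes and the gene lists, and a reading as non-treated over treated would turn every sign.

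SPARC, also called osteonectin or BM-40, is a secreted glycoprotein that binds collagen and calcium, and fibroblasts are among the cells that make it. It belongs to the matricellular proteins, which sit in the extracellular matrix and regulate how cells contact it more than they build it. SPARCL1, also called hevin or SC1, has the same kind of follistatin-like and calcium-binding domains behind a long acidic N-terminal part, and is best known from astrocytes, where it promotes synapse formation, and from blood vessel endothelium.

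The 3 probes of Sparc lay mostly above 0 at 3 h, by 1.34 to 2.46-fold on average. Probe 11087 had log2 ratios of 0.41, 0.57, 0.44 and 1.09 on 3 h replicates 1 to 4. All 4 arrays were above 0, and replicate 4 was the highest. Their mean was 0.63 ± 0.32 (SD, n = 4), or 1.54-fold. Probe 8471 had 0.67, 0.52, -0.36 and 0.86 in the same order, with a mean of 0.42 ± 0.54 (n = 4). It was above 0 on 3 of 4 arrays, and replicate 3 went the other way. The mean was 0.68 without replicate 3 and 0.17 without replicate 4, as fitted with the dye term. Probe 5137 was measured on 3 of the 4 arrays, with 0.67 on replicate 1, 1.70 on replicate 3 and 1.52 on replicate 4, and a mean of 1.30 ± 0.55 (n = 3). The value of this probe on replicate 2 was blank in the deposited table.

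Sparcl1 gave 1 probe that was low on every 3 h array and 1 that was not. Probe 8166 had log2 ratios of -1.65, -1.75, -2.16 and -1.36 on replicates 1 to 4, with a mean of -1.73 ± 0.33 (n = 4), which is 3.31-fold lower. The 4 arrays lay close together, and both dye orientations gave nearly the same mean, -1.70 with the treated sample in Cy5 and -1.76 with it in Cy3 (n = 2 each). Probe 3379 had 0.92 on replicate 2, -3.91 on replicate 3 and 0.04 on replicate 4, and was blank on replicate 1. Its mean of -0.98 ± 2.57 (n = 3) came from replicate 3 alone, since both other arrays were above 0, and was 0.48 without it. The lower value of Sparcl1 at 3 h was thus seen on all arrays with probe 8166 and not with probe 3379.

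**Figure D1:**
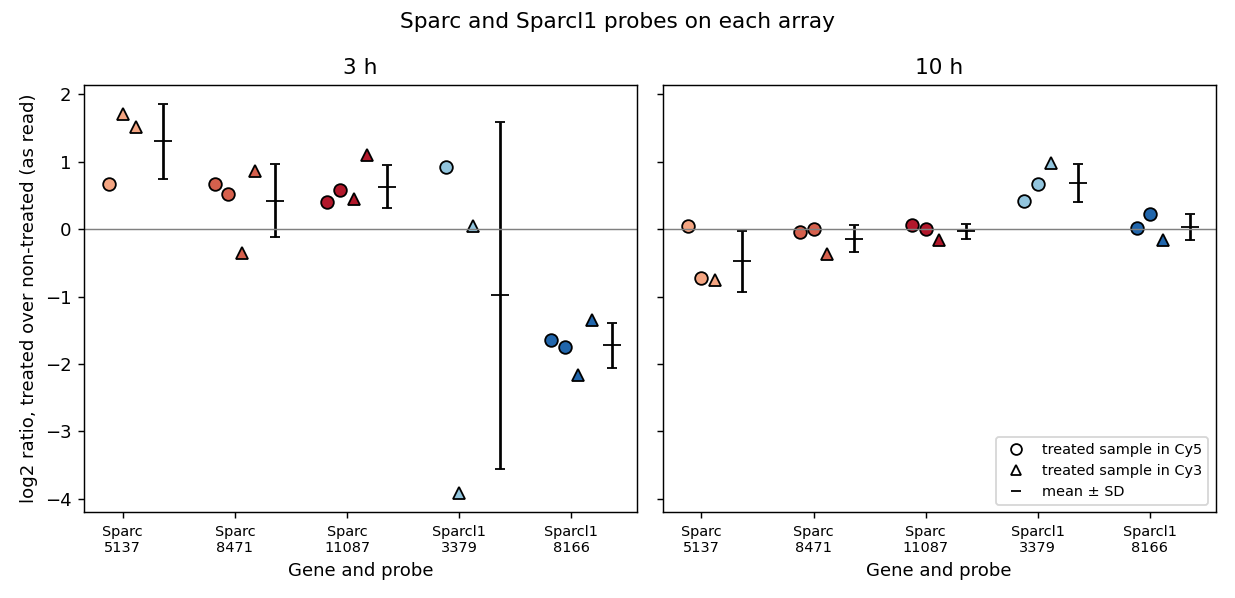
Log2 ratios (vertical axis) of the 3 Sparc and 2 Sparcl1 probes on each array at 3 h (left) and 10 h (right), with circles for the treated sample in Cy5, triangles for Cy3, and bars for the mean ± SD. Sparcl1 probe 8166 lies between -2.16 and -1.36 on all 4 arrays at 3 h and between -0.16 and 0.23 at 10 h, and probe 3379 spreads from -3.91 to 0.92 at 3 h.

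Against all 11559 probes in the fit, Sparcl1 probe 8166 stood far out at 3 h, where 1.16% of probes had a lower mean. Of the Sparc probes, 5137 was exceeded by 2.21% of probes, 11087 by 10.5% and 8471 by 1849 of the 11559. Being above 0 on every measured 3 h array, as Sparc probes 5137 and 11087 were, was found for 7.09% of probes. Being below 0 on every one, as Sparcl1 probe 8166 was, was found for 16.4%. These ranks depended on the direction of the ratio. Read as Cy5 over Cy3, probe 8166 lay in the middle, with 50.2% of probes lower at 3 h, and 93.8% of probes exceeded 5137, 63.0% exceeded 11087 and 39.4% exceeded 8471. Sparcl1 probe 3379 was the far one in that reading, exceeded by 0.80% of probes. In it no Sparc or Sparcl1 probe was on one side of 0 on every measured 3 h array, against 10.9% of all probes above and 7.1% below. For 5137, 11087 and 8166 this follows from their 1 sign in the first reading, since each was measured in both dye orientations. In the limma fit, the share of probes with an adjusted p under 0.05 at 3 h was 0%. These shares place the probes among the others and are no test, since the 3 h values chose the genes.

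**Figure D2:**
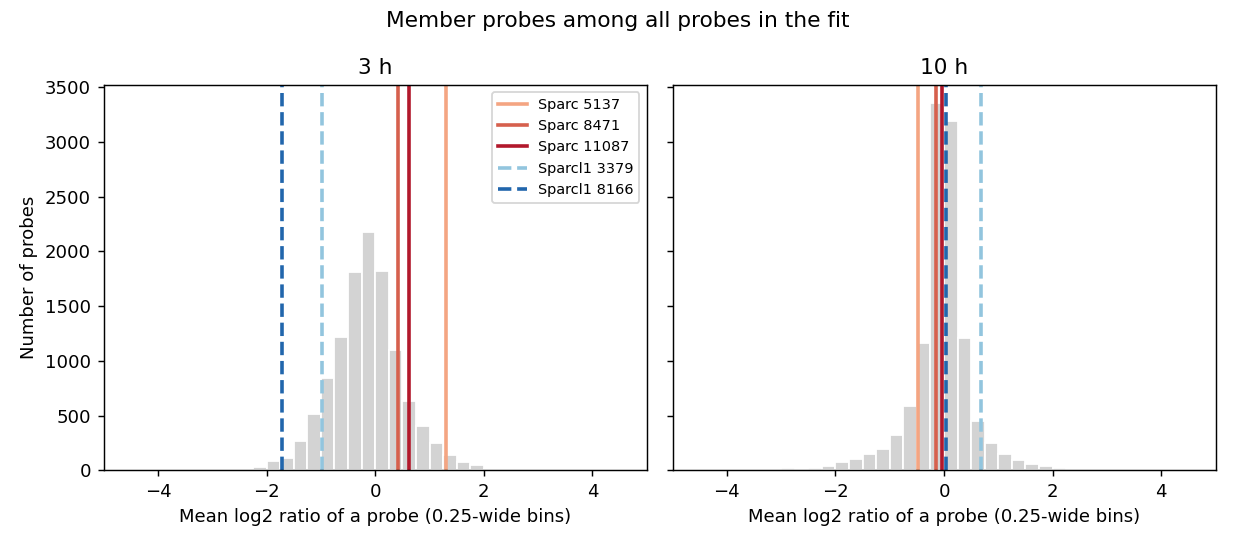
Number of probes (vertical axis) by mean log2 ratio (horizontal axis, grey bars) at 3 h (left) and 10 h (right) over the 11559 probes in the fit, with a line at the mean of each Sparc (solid) and Sparcl1 (dashed) probe. At 3 h Sparcl1 probe 8166, at -1.73, lies in the lower tail and Sparc probe 5137, at 1.30, in the upper tail, while at 10 h the means of all 5 probes lie between -0.47 and 0.68.

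The opposite signs of the relatives were present within single arrays. Probes 11087 and 8166, each measured on all 7 arrays, had Sparc above 0 and Sparcl1 below 0 on 4 of 4 arrays at 3 h. The log2 ratio of Sparc exceeded that of Sparcl1 by 2.05, 2.32, 2.60 and 2.45 on replicates 1 to 4, a mean of 2.35 ± 0.23 (SD, n = 4). With Sparc probe 8471 the difference was 2.31, 2.26, 1.80 and 2.22, a mean of 2.15 ± 0.24 (n = 4), and the signs were opposite on 3 of 4 arrays. On replicate 3 both genes were below 0, Sparcl1 further than Sparc. With Sparc probe 5137 the signs were opposite on 3 of 3 arrays (mean difference 3.02 ± 0.78, n = 3). Paired with Sparcl1 probe 3379, the opposite signs were seen on 1 of 2, 0 of 3 and 1 of 3 arrays for Sparc probes 5137, 8471 and 11087.

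The opposite signs depended on the assumed direction of the ratio. Read as Cy5 over Cy3, Sparcl1 probe 8166 had a 3 h mean of 0.03 ± 2.02 (n = 4), with 2 arrays above and 2 below 0. Sparc probe 11087 then had -0.14 ± 0.77 (n = 4), probe 8471 had 0.17 ± 0.70 (n = 4) and probe 5137 had -0.85 ± 1.32 (n = 3). Sparcl1 probe 3379 had the highest 3 h mean of the 5 probes in that reading, 1.60 ± 2.06 (n = 3), with 2 arrays above 0 and 1 below. The mean difference between the genes in that reading was -0.17 with Sparc probe 11087 and 0.14 with 8471, against Sparcl1 probe 8166. Within the deposited values both dye orientations gave differences of like size, 2.18 where Cy5 marked the treated RNA and 2.52 where Cy3 did with probe 11087, and 2.29 and 2.01 with probe 8471 (n = 2 each).

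No probe of either gene passed the test at 10 h. Sparc probe 11087 had log2 ratios of 0.06, 0.00 and -0.16 on replicates 1 to 3 (mean -0.03 ± 0.11, SD, n = 3). Probe 8471 had -0.05, 0.00 and -0.37 (mean -0.14 ± 0.20, n = 3), and probe 5137 had 0.05, -0.72 and -0.75 (mean -0.47 ± 0.45, n = 3). The lowest value of each Sparc probe was on replicate 3, the array with the treated sample in Cy3. Sparcl1 probe 8166 had 0.02, 0.23 and -0.16 (mean 0.03 ± 0.19, n = 3), so the gene's low probe at 3 h lay about 0 at 10 h. Sparcl1 probe 3379 was above 0 on 3 of 3 arrays, with 0.41, 0.67 and 0.97 (mean 0.68 ± 0.28, n = 3), as were 16.4% of all probes.

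In limma, with a mean for each time and a term for dye, the adjusted p at 10 h was 0.9996 for each of the 5 probes (0.639 to 1 over all alternatives). The fitted log2 ratios were -0.02 for Sparc probe 11087, with a 95% interval of -0.70 to 0.66, -0.20 for 8471 (-0.96 to 0.57), and -0.43 for 5137 (-1.32 to 0.46). They were 0.01 for Sparcl1 probe 8166 (-0.68 to 0.70) and 0.48 for 3379 (-1.63 to 2.60). The spread behind these intervals was shared with the 3 h arrays, where 3379 had an SD of 2.57 against 0.28 at 10 h. Fitted on the 10 h arrays alone, probe 3379 had 0.76 (limma adjusted p = 0.639). Probes 5137, 8471, 11087 and 8166 then had -0.54, -0.20, -0.06 and -0.02. Over all 11559 probes the share called at 10 h was 0%, with an unadjusted p under 0.05 for 448 probes. Read as Cy5 over Cy3, the 10 h means of the 5 probes were 0.02 to 0.13, and no probe passed.

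At 10 h the difference between the relatives lay near 0 for the probe pairs measured on all arrays. Sparc probe 11087 minus Sparcl1 probe 8166 was 0.04, -0.22 and 0.00 on replicates 1 to 3, a mean of -0.06 ± 0.14 (SD, n = 3; exact two-sided sign permutation p = 1). With Sparc probe 8471 the difference was -0.07, -0.23 and -0.22, a mean of -0.17 ± 0.09 (n = 3), with Sparcl1 the higher on 3 of 3 arrays (exact permutation p = 0.25). With 3 arrays that test can give no p below 0.25, and no Benjamini-Hochberg adjusted value over the 6 probe pairs tested was below 0.375. With Sparcl1 probe 3379 the mean differences were -1.16 ± 0.71, -0.83 ± 0.46 and -0.72 ± 0.39 for Sparc probes 5137, 8471 and 11087, again below 0 on 3 of 3 arrays each (n = 3, exact permutation p = 0.25 each). Sparc probe 5137 minus Sparcl1 probe 8166 was -0.51 ± 0.49 (n = 3, exact permutation p = 0.5).

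**Figure D3:**
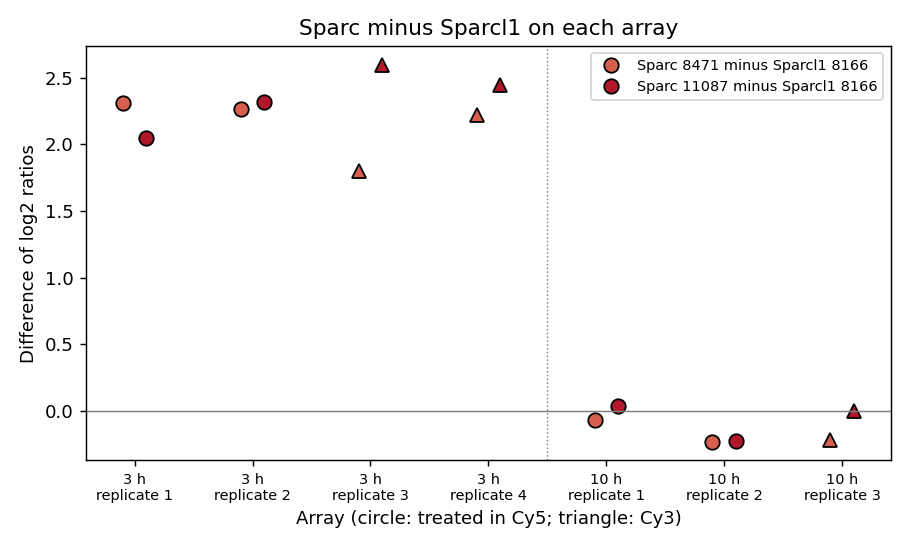
Log2 ratio of Sparc minus log2 ratio of Sparcl1 (vertical axis) on each array (horizontal axis) for the probe pairs measured on all 7 arrays, with circles for the treated sample in Cy5 and triangles for Cy3. All 3 h points lie between 1.80 and 2.60 and all 10 h points between -0.23 and 0.04.

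The means at 10 h differed from those at 3 h in opposite directions for the genes. The mean of Sparcl1 probe 8166 was higher at 10 h than at 3 h by 1.76, and every 10 h array lay above every 3 h array, with 1.20 between the nearest values. Sparc probe 5137 differed by -1.77 and probe 11087 by -0.66, and their 3 h arrays all lay above their 10 h arrays, by at least 0.63 and 0.35. Sparc probe 8471 differed by -0.56 and Sparcl1 probe 3379 by 1.67, with overlapping arrays. Leaving out 1 array at a time, the fitted difference ran from -0.38 to 2.91 for 3379, below 0 without 10 h replicate 3, and from -2.36 to -1.01 for 5137. Among all probes, 4.72% had every 3 h value above every 10 h value and 9.87% the reverse. In the reading as Cy5 over Cy3, the 3 h and 10 h arrays overlapped for each of the 5 probes, the shares of all probes were 5.95% and 3.3%, and the differences of means were 0.87 for 5137, 0.21 for 11087, -0.06 for 8471, -1.56 for 3379 and 0.10 for 8166. These values hold the 3 h values that chose the genes and are not tested. The 3 h arrays were also more variable as a whole, with a scaled median absolute deviation of 0.82 to 1.15 over probes against 0.53 to 0.58 at 10 h.

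The means of the 3 Sparc probes had the same sign at each time, as had those of the 2 Sparcl1 probes. On single arrays probes of both genes disagreed. Sparc probes 8471 and 11087 had the same sign on 3 of 4 arrays at 3 h and 1 of 3 at 10 h. At 3 h, Sparc probe 5137 had the sign of 8471 on 2 of 3 arrays and that of 11087 on 3 of 3. At 10 h it had the sign of each on 2 of 3. Over the 1918 pairs of probes of the same gene in the fit, the median difference between their means was 0.50 at 3 h and 0.32 at 10 h, and 56.0% and 52.8% of pairs had the same sign. Sparc probes 8471 and 11087 differed by 0.21 at 3 h and 0.11 at 10 h, closer than most pairs, while 5137 lay 0.88 from 8471 and 0.67 from 11087 at 3 h. The Sparcl1 probes differed by 0.74 at 3 h, where 65.5% of pairs were closer, and by 0.65 at 10 h. On the 3 arrays at 3 h where both Sparcl1 probes were measured, they had the same sign on 1, replicate 3.

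The probes differed in how often they gave a ratio of small whole numbers. Once each array's own scaling constant had been subtracted, between 70.2% and 76.1% of all measured values on the 3 h arrays and 24.5% to 25.9% on the 10 h arrays matched, within 0.0016 on the log2 scale, a ratio formed by whole numbers up to 16. Sparc probe 5137 lay at 7:6, 7:2 and 2:1 on its 3 arrays at 3 h, and at such a ratio on 2 of 3 arrays at 10 h. Sparcl1 probe 3379 lay at 5:3 on 3 h replicate 2 and at 1:14 on replicate 3, its extreme value, so on 2 of 3 arrays at 3 h, and on 0 of 3 at 10 h. Counts of 3 of 3 and 2 of 3 are near the share of all 3 h values. Sparcl1 probe 8166 lay at such a ratio on 1 of 4 arrays at 3 h (3:11 on replicate 4), and Sparc probes 8471 and 11087 on 0 of 4, and all of these on 0 of 3 at 10 h. Spot intensities are not analysed here, so the part of low signal in these differences between probes was not tested.

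Relatives of Sparc and the collagens it binds were next described from fixed lists, as gene means over probes. Of 8 genes of the SPARC family, 6 were in the fit. Their median was 0.06 at 3 h, or 0.19 above that of all 6573 genes, with 3 above and 3 below 0. At 10 h it was 0.24, or 0.26 above all genes, with 4 above 0. Of all 6573 genes, 39.3% were above 0 at 3 h and 47.4% at 10 h. The medians were 0.06 and 0.23 above all genes when read as Cy5 over Cy3. Spock2, a testican proteoglycan with the same calcium-binding domain, had -0.83 ± 0.56 at 3 h (SD, n = 3) and 0.47 ± 0.39 at 10 h (n = 3), on the same sides of 0 as Sparcl1, which as a mean of its probes had -1.44 ± 1.19 (n = 4) and 0.36 ± 0.12 (n = 3). Sparcl1 had 0.41 and 0.08 and Spock2 -0.64 and 0.39 when read as Cy5 over Cy3. Fstl1, a follistatin-like secreted glycoprotein, had 0.34 ± 0.76 and -0.01 ± 0.12, and Smoc2, a secreted modular calcium-binding protein, had 0.52 ± 1.93 and 0.36 ± 0.81. With the 3 h values of Sparc and Sparcl1 left aside, no probe of this or any other list passed in limma at either time, where 0% of all probes did (unadjusted p under 0.05 for 1577 probes at 3 h). Of the genes named from the lists by their values, Sparc and Sparcl1 aside, 8 of 13 at 3 h and 3 of 17 at 10 h had a mean of the other sign when read as Cy5 over Cy3. These genes were named for 1 sign on all arrays of a time. That reading turns 2 of 4 arrays at 3 h and 1 of 3 at 10 h, so the counts do not compare the times.

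The other matricellular proteins showed no common direction. Of 25 listed genes, 18 had a probe and 11 were in the fit. Of the 11, 4 were above 0 at 3 h and 6 at 10 h, against 39.3% and 47.4% of all genes. Their medians lay 0.12 and 0.05 above all genes (-0.07 and -0.08 with ratios read as Cy5 over Cy3). Comp, the cartilage oligomeric matrix protein, had -1.86 ± 0.70 at 3 h (n = 3). Thbs1, the adhesive glycoprotein thrombospondin 1, had 0.31 ± 0.22 at 3 h (n = 4) and -0.17 ± 0.09 at 10 h (n = 3). The growth-responsive genes Ccn1 and Ccn2 had -0.33 ± 0.17 and -0.19 ± 0.10 at 10 h (n = 3 each).

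Collagens were split around 0. Of 13 listed collagen genes, 12 had a probe and 8 were in the fit. Of the 8, 4 were above 0 at each time, against 39.3% of all genes at 3 h and 47.4% at 10 h. Their medians lay 0.22 above all genes at 3 h and 0.04 below them at 10 h (0.22 above and 0.02 below read as Cy5 over Cy3). The type I collagen gene Col1a1 had 1.11 ± 0.47 at 3 h (n = 3) and -1.12 ± 1.13 at 10 h (n = 3). With ratios read as Cy5 over Cy3, Col1a1 had -0.71 and -0.33. Its partner chain Col1a2 had -0.16 ± 0.64 (n = 4) and -0.25 ± 0.25 (n = 3). Col6a1 and Col6a2, chains of type VI collagen, had -0.11 ± 0.04 and -0.15 ± 0.08 at 10 h (n = 3 each).

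**Figure D4:**
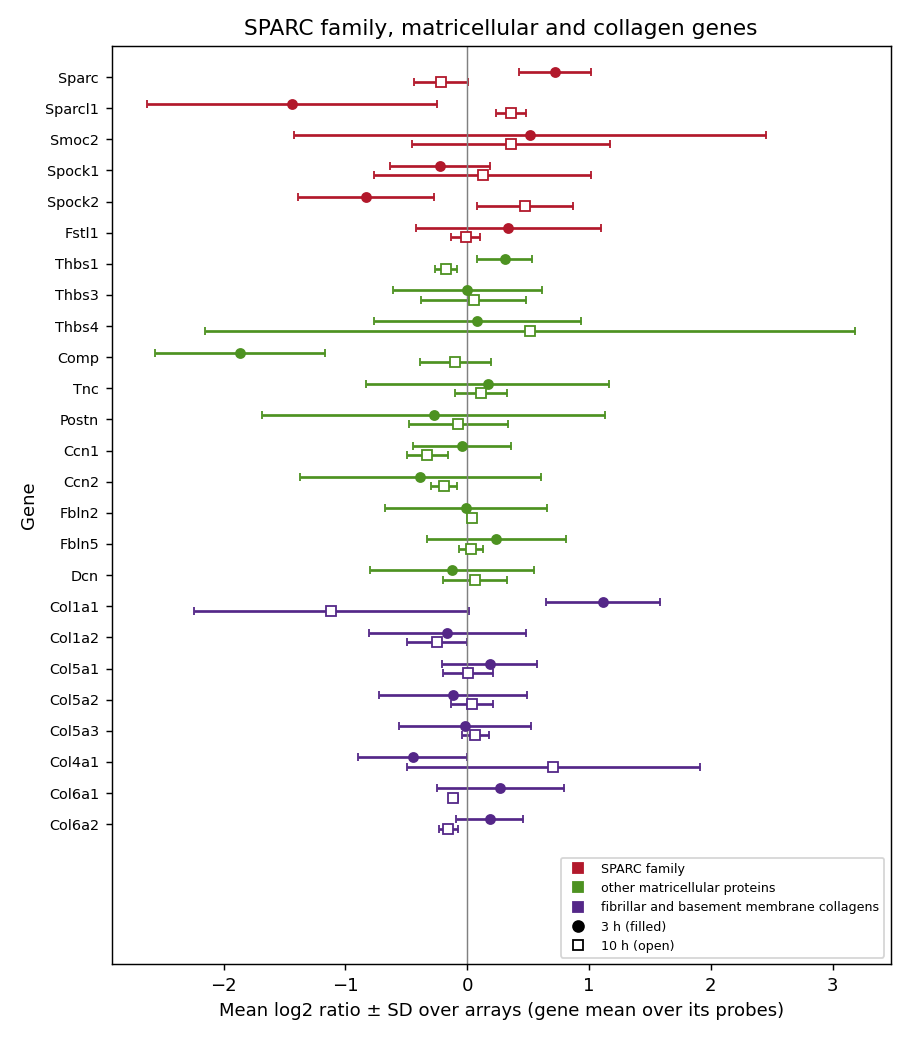
Mean log2 ratio ± SD over arrays (horizontal axis) of genes of the SPARC family (red), other matricellular proteins (green) and collagens (purple), at 3 h (filled circles) and 10 h (open squares). Sparc, at 0.72, and Sparcl1, at -1.44, lie on opposite sides of 0 at 3 h, and the 3 h bars of most other genes cross 0.

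Of 14 listed genes that process or crosslink collagen, 12 had a probe and 10 were in the fit. Of the 10, 8 were above 0 at 3 h, against 39.3% of all genes. Their median lay 0.46 above all genes, but 0.00 from all genes with ratios read as Cy5 over Cy3. At 10 h 5 of 10 were above 0, against 47.4% of all genes. Pcolce, which enhances procollagen cleavage, had 0.68 ± 0.59 at 3 h (n = 4) and -0.42 ± 0.36 at 10 h (n = 3). The prolyl hydroxylase subunits P4ha1 and P4ha2 had 0.36 ± 0.27 and -0.63 ± 0.22 at 3 h (n = 4 each). At 10 h Bmp1, a procollagen proteinase, had 0.50 ± 0.50 (n = 2) and the crosslinking enzyme Lox 0.22 ± 0.16 (n = 3).

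Of 21 listed partners, receptors and proteases of SPARC, 18 had a probe and 12 were in the fit. Of the 12, 7 were above 0 at 3 h and 4 at 10 h, against 39.3% and 47.4% of all genes. Their medians lay 0.15 above and 0.11 below all genes (0.24 above and 0.21 below read as Cy5 over Cy3). The integrin subunit Itgav had 0.41 ± 0.27 at 3 h (n = 4) and -1.67 ± 2.11 at 10 h (n = 3), and the matrix metalloproteinase Mmp3 had -0.86 ± 0.70 at 3 h (n = 3). Pdgfb, a growth factor chain that SPARC binds, had 0.88 ± 0.81 at 10 h (n = 3), and the receptor Pdgfra had -0.69 ± 0.46 (n = 2).

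A ratio gives no level, so whether the cells carried fibroblast markers or those of other cells that make Sparcl1 could be read only as a change. Of 11 fibroblast markers 5 were above 0 at 3 h and 4 at 10 h, against 39.3% and 47.4% of all genes. Their medians lay 0.12 above and 0.23 below all genes (0.22 above and 0.05 below read as Cy5 over Cy3). Twist1 had 0.90 ± 0.53 at 3 h and -0.64 ± 1.68 at 10 h (n = 3 each). S100a4 had -0.32 ± 0.43 at 3 h (n = 4) and 0.45 ± 0.08 at 10 h (n = 3). Pdgfrb had -0.16 ± 0.78 (n = 4) and -0.36 ± 0.19 (n = 3), and the matrix protein Fn1 0.21 ± 0.49 (n = 4) and 0.15 ± 0.10 (n = 3) at the 2 times. Of 14 listed astrocyte, endothelial and smooth muscle markers, 12 had a probe and 8 were in the fit. Of the 8, 6 were above 0 at 3 h and 5 at 10 h, against 39.3% and 47.4% of all genes. Their medians lay 0.43 and 0.16 above all genes (0.06 and 0.05 read as Cy5 over Cy3). The markers of the cells known for Sparcl1 were on both sides of 0. Of the astrocyte markers, Gfap had -2.16 ± 2.02 at 3 h and 0.34 ± 0.29 at 10 h (n = 3 each), Aldh1l1 0.15 ± 0.57 (n = 4) and -0.68 ± 0.40 (n = 3), and Aqp4 0.78 ± 3.06 and 0.09 ± 0.61 (n = 3 each). The endothelial receptor Tie1 had 0.48 ± 0.04 at 3 h and 1.99 ± 1.71 at 10 h (n = 3 each). The endothelial marker Cdh5 had 0.01 ± 0.88 at 3 h (n = 4) and 1.25 ± 0.09 at 10 h (n = 2). Kdr, also an endothelial marker, had 0.9995 ± 1.61 at 3 h (n = 4) and -0.66 ± 2.41 at 10 h (n = 2). The smooth muscle genes went apart at 3 h, with -1.57 ± 0.67 for Myh11 and 0.46 ± 0.19 for Acta2 (n = 4 each), and read as Cy5 over Cy3 with 0.31 and -0.13. At 10 h they had 0.21 ± 0.24 and -0.05 ± 0.16 (n = 3 each). The part of other cells in the Sparcl1 values was not tested.

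Probes with the most similar profile were ranked by Pearson r over the 7 arrays among the 4731 other probes with 1 symbol and no missing value. Any probe that separates the 3 h from the 10 h arrays scores high here, so r is given as a description. Sparc probe 11087 was most like Plod3, a lysyl hydroxylase of collagen (r = 0.987), the glycolytic enzyme Aldoa (0.984), the ferritin chain Ftl1 (0.980), Igsf8 (0.978) and Smim7 (0.972). Sparc probe 8471 was most like Pkmyt1 (0.979), the actins Actg2 (0.978) and Actg1 (0.968), Ly6e (0.970) and the translation release factor Gspt1 (0.967). The other Sparc probe ranked 164 for 11087 and 326 for 8471, at r = 0.765. Sparcl1 probe 8166 was most like Naalad2 (0.994), Grcc10 (0.988), the sorting nexin Snx18 (0.987), the ubiquitin ligase Znrf1 (0.986) and Pcyt2 (0.984). Of these, Znrf1 was closest to it in size as well, with -1.56 ± 0.45 at 3 h (n = 4) and 0.43 ± 0.13 at 10 h (n = 3). Sparc probes correlated with Sparcl1 probe 8166 at -0.696 (11087) and -0.380 (8471). These r hold the 3 h values that chose the genes, so their sign follows in part from that choice. All r here are given for the reading as treated over non-treated only.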

How the data were processed

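The authors deposited 1 table of log2 ratios with a column for each of 7 arrays. Per the labels' protocols, the cDNA of each RNA carried Cy3 or Cy5 through indirect labelling. How the arrays were scanned, background-corrected and normalized is not stated in the sources used here, and the log base was read from the values. The label protocol speaks of a pool from control animals, while the source names give fibroblasts in both channels; the source names were followed. Values over 15 in size, 163 to 1614 spots per array, repeat 1 value on each array and were taken as missing; the 5 probes held none. Between 13262 and 17766 spots per array were measured, and the number of arrays limits the precision. Replicate arrays were little alike over the measured probes. At 3 h, r between arrays was 0.08 to 0.23. At 10 h it was 0.09 between replicates 1 and 2, and -0.08 and -0.12 between these and replicate 3, the Cy3 array. Read as Cy5 over Cy3, r between arrays of different dye orientation has the other sign. The cause was not tested.

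Probes were named through the platform annotation (14030 with 1 symbol, 5 with several), and all 5 gene identifiers matched the RefSeq gene table (GRCm38.p6). A probe entered the fit with 3 or more values at 3 h and 2 or more at 10 h (lmFit and eBayes of limma 3.58.1, run in R 4.3.3, a mean per time and a dye term, two-sided, Benjamini-Hochberg, threshold 0.05). The fit was also run on simulated normal values with 1 spread per probe for both times and no dye effect. The measured 3 h arrays were more variable than the 10 h arrays, so that run cannot show how the shared spread affects the 10 h test. Exact sign permutations were run over arrays. The 3 genes of each list with the largest mean of 1 sign on all arrays, at each time, were named, with Col1a1, Col1a2, Fn1 and Stab1 (no value in the fit). Fstl1, Smoc2, Aqp4, Kdr and Acta2 and the remaining values of Gfap, Aldh1l1, Cdh5, Myh11, Twist1, S100a4 and Pdgfrb were added after their values were seen. The 5 nearest probes of each complete probe were named too. The members and lists were chosen with earlier results of these data known. Alternatives are given in the closing section.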

Additional observations from a re-analysis of the deposited data

Results flagged for a closer look

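Over the 62 genes of the lists as means over their probes, the 5 probes and the 14 nearest probes of genes on no list, 4 groups of 3 h arrays had 1 array far from the others, among 63 groups of 4 looked at, and about 1 in 20 is flagged by chance. Col1a2 had -1.12 on replicate 3 against 0.09, 0.24 and 0.14 on replicates 1, 2 and 4. Sparc probe 8471 and both Sparcl1 probes also had their lowest 3 h value on that array, while Sparc probe 5137 had its highest there, 1.70. That array had the widest spread over probes, with a scaled median absolute deviation of 1.15. Replicate 4 was the high one for Sparc as a mean over its probes, with 1.16 against 0.58, 0.55 and 0.60, for the integrin subunit Itgb1, with 0.42 against -0.06, -0.09 and -0.16, and for Smim7 probe 5854, with 2.52 against 1.03, 1.06 and 0.90.

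For 7 genes of the lists every 3 h array lay on one side of 0 and every 10 h array on the other. The share of all genes that did so was not counted, so the number is no result about the lists. By a looser split that need not cross 0, 4.72% of all probes had every 3 h value above every 10 h value and 9.87% the reverse. The difference between the times was not tested for the 7 genes. Sparcl1 was one of these as a mean over its probes, with -1.65, -0.41, -3.03 and -0.66 at 3 h and 0.22, 0.45 and 0.41 at 10 h, though neither of its probes alone was. On 3 h replicate 1 that mean is probe 8166 alone. The mean at 10 h less that at 3 h was 1.79 for Sparcl1, 2.50 for Gfap, -2.09 for Itgav, -1.10 for Pcolce, -0.45 for Plod3, 1.30 for Spock2 and -0.48 for Thbs1. Read as Cy5 over Cy3, the 3 h and 10 h means were 0.41 and 0.08 for Sparcl1, -1.24 and -0.11 for Gfap, 0.14 and -1.22 for Itgav, 0.05 and -0.28 for Pcolce, -0.07 and -0.04 for Plod3, -0.64 and 0.39 for Spock2, and -0.04 and -0.12 for Thbs1.

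The same was so for the 5 probes nearest to Sparcl1 probe 8166, which were picked for their likeness to it. Their differences were 0.58 for Naalad2, 0.90 for Grcc10, 1.57 for Snx18, 1.98 for Znrf1 and 0.84 for Pcyt2, also not tested.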

How the results depend on the processing

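The 5 probes were refitted under the listed alternatives, as fitted log2 ratios that can differ from plain means. No probe passed at 10 h in any of them (adjusted p 0.639 to 1 in limma), and 242 of 268 refitted log2 ratios or differences kept their sign. That count includes refits that could not change a value, so it is no measure of how stable the signs were. The 5 probes held no extreme values, so keeping such values altered nothing. For probes measured on all arrays, restricting the fit to such probes left the log2 ratios the same. Their 3 h values also stayed the same when a 10 h array was left out. The direction of the ratio had the most effect. Read as Cy5 over Cy3, the 3 h values were -0.75 for Sparc probe 5137, -0.14 for 11087, 0.03 for Sparcl1 probe 8166 and 1.64 for 3379 (against -0.78), and the 10 h values 0.049 for Sparc probe 8471, -0.0069 for Sparcl1 probe 3379 and 0.48 for 8166 (against 0.006). The 10 h minus 3 h values were then 0.67 for 5137, 0.095 for 11087, -1.65 for 3379 and 0.45 for 8166, and Sparc minus Sparcl1 at 3 h was 0.14 (8471 and 8166) and -0.17 (11087 and 8166). Only with the treated sample in Cy5, Sparc probe 5137 had 0.67 and Sparcl1 probe 3379 0.92 at 3 h, 11087 had 0.032 at 10 h, and 10 h minus 3 h was -0.38 for 3379. Only with it in Cy3, Sparcl1 probe 8166 had -0.16 at 10 h, and 395 probes were called in a fit of 3 arrays with at most 1 residual degree of freedom, which rests on very few values. Centring made Sparc probe 11087 0.0065 at 10 h, the 10 h arrays alone made 8166 -0.016, and the mean over probes gave Sparc -0.92 for 10 h minus 3 h against -1.69 for probe 5137. Without each array in turn, the 3 h value ran from 1.10 to 1.82 for 5137 and from -2.15 to 0.48 for 3379, and 10 h minus 3 h from -2.36 to -1.01 and from -0.38 to 2.91. The 10 h value ran from -0.74 to 0.13 for 5137, -0.076 to 0.17 for 11087, -0.89 to 0.82 for 3379 and -0.067 to 0.094 for 8166. Sparc minus Sparcl1 at 10 h ran from -0.11 to 0.019 (11087 and 8166), and at 3 h from 2.27 to 2.45 (11087) and 2.09 to 2.26 (8471). The cause of these changes was not tested. Restricting to probes with values on all arrays left out 5137 and 3379. Same-numbered arrays deviated together at r = 0.03, 0.03 and 0.09, so the numbers were not taken as pairs. With the replicate block, 10 h minus 3 h was 1.88 for 8166, 2.31 for 3379 (1.26 without it), -1.54 for 5137, -0.42 for 8471 and -0.50 for 11087.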
